A study of Schizosaccharomyces pombe with 15 samples.

Results

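Pcr1 was mapped on the fission yeast genome (Schizosaccharomyces pombe) by chromatin immunoprecipitation and sequencing, and every record of its deposited peak list was taken, 1567 peaks of the 5439 in the 4 lists of the series. The other lists are of Atf1, Deb1 and Orc1. The Pcr1 strain had the mating type h90 and the alleles leu1-32, ura4-D18 and ade6-M210, its CenH element was replaced by 9xtetO-ura4, and pcr1 carried 3 copies of the FLAG tag (pcr1-3xFLAG-hph). The Atf1 strain shared this CenH replacement. The Deb1 and Orc1 strains, used below only for overlaps and for their promoter and coding shares, had CenH intact, and Orc1 carried 5 copies of the tag. Cells were grown in rich medium (YES) at 32 °C, kept at 18 °C for 2 hours, fixed there with formaldehyde for 30 min and precipitated with the M2 antibody against FLAG. Of the 15 samples in 8 groups, 2 are Pcr1 precipitations, and they share 1 list, so no value has a replicate error. Every sample had been at 18 °C, so the lists hold no unshifted group and no effect of cold can be read from them. The read depth is unknown, and the labels do not say which control the Pcr1 peaks were called against.

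Pcr1 is a basic leucine zipper (bZIP) transcription factor that binds DNA as a heterodimer with Atf1. Proteins of this ATF/CREB family bind the core TGACGT, most tightly in the palindrome TGACGTCA. Atf1 is a substrate of the stress MAP kinase Sty1, and the pair acts in the stress response, in mating and meiosis, and at the silent mating-type region. The heptamer ATGACGT, which extends the core by 1 base, is known as the sequence of a meiotic recombination hotspot in ade6 that Atf1 and Pcr1 bind.

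The core lay within 100 bp of the summit, the position of highest signal, at 15 of the 20 strongest peaks. The 7 peaks below are among the 8 of highest fold on chromosomes 1, 3 and the left of chromosome 2 that had it. The fold is the authors' enrichment over the control and serves here only to rank, filter and describe peaks within this list. The core is in capitals, with 12 bases on each side, read 5′ to 3′ on the strand that holds TGACGT, from RefSeq assembly ASM294v3.
cds1, chr3:740684-740713, minus strand: tttacaatttacTGACGTcatttaggaacg
pqr1, chr1:2423899-2423928, plus strand: agcatttcccccTGACGTcataaaaagagc
osh6, chr3:1266969-1266998, plus strand: tccaggtctaaaTGACGTcagtcatctcag
srk1, chr3:1301811-1301840, minus strand: ttacgatggtggTGACGTtgcgcatccatg
SPAC16A10.01, chr1:3076898-3076927, plus strand: ggctttgctacgTGACGTtgcttttacatc
svf1, chr3:1513409-1513438, plus strand: ttgtttagtgatTGACGTaatgcaaaacgc
gsf2, chr3:967618-967647, minus strand: aacatcatgtcaTGACGTataagctttagt
The centre of the core was 0.5 bp from the summit at cds1, osh6 and srk1, 5.5 bp at gsf2, 12.5 bp at pqr1, 14.5 bp at svf1 and 23.5 bp at SPAC16A10.01. The core is followed by CA, which makes the palindrome, at cds1, pqr1 and osh6, by AA at svf1, by TG at srk1 and SPAC16A10.01, and by AT at gsf2.

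Some promoters held several copies. The 201 bp around the summit between srk1, which encodes a kinase activated by Sty1, and its divergent neighbour held 3 copies of the core, shown in capitals on the plus strand, where ACGTCA is the core read from the other strand.
srk1, chr3:1301725-1301925, plus strand: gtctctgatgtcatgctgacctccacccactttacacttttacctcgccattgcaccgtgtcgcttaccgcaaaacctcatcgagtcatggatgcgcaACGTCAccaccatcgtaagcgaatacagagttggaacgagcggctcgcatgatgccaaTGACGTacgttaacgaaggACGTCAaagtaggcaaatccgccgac

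Pcr1 peaks lay on all 3 chromosomes at similar density. Chromosome 1 held 638 peaks (11.4 per 100 kb), chromosome 2 held 593 (13.0) and chromosome 3 held 336 (13.7). The peaks covered 559600 bp, 4.45% of the genome. The stretch of chromosome 2 from 2110000 to 2160000, which includes the mating-type region, held 14 peaks, or 28.0 per 100 kb, with folds of 1.92 to 4.69. Its strongest peak was at chr2:2135534-2136195 in the lists' coordinates and ranked 124. The whole genome held 12.5 peaks per 100 kb, and the median fold was 2.28 in this stretch and 2.41 in the list. Whether the CenH replacement of the strain, or the genome build, which is not given, bears on this density was not tested. The outer 50 kb of the chromosomes held 6 and 9 peaks on chromosome 1, 6 and 13 on chromosome 2 and 14 and 14 on chromosome 3, left and right. The lists extend 12185 bp beyond the reference on chromosome 2. Genes and sequence right of 2160000 were therefore read after subtracting 12220 bp, the stretch around the mating-type region was left without genes, and 1553 summits were annotated. On chromosome 2 right the core lay within 100 bp of 42 of 284 summits (14.8%) with this subtraction and of 7 of 276 (2.54%) without it. Coordinates below are those of the lists.

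Peak widths had a median of 250 bp, with quartiles of 155 and 468.5 bp and a range of 57 to 2245 bp. Folds had a median of 2.41 and ran from 1.42 to 6.82, and 447 peaks (28.5%) reached 3. Stronger peaks were wider: the median width was 148.5, 199, 287 and 612 bp from the lowest to the highest of 4 fold bins, which met at 2.06, 2.41 and 3.13. The widest peak, 2245 bp at chr1:1478670-1480914, had its summit in coding sequence with thi9, a thiamine transporter gene, as the nearest start and a fold of 2.68. The next were 1915 bp upstream of SPBC19C7.04C, 1745 bp near dus2, 1664 bp upstream of the polyubiquitin gene ubi4 and 1639 bp upstream of puf5, with folds of 4.39, 2.73, 3.75 and 6.11. Of these 5, only the puf5 peak was among the 20 strongest.

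**Figure D1:**
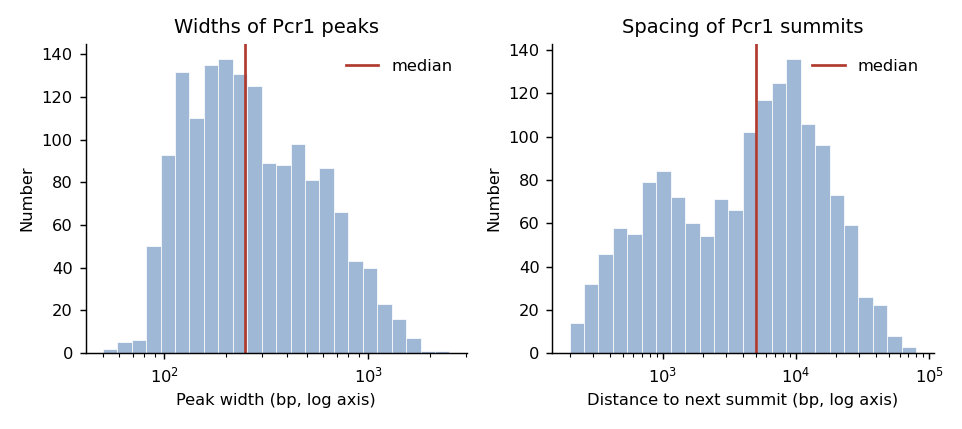
Widths of the 1567 Pcr1 peaks (left, bp) and distances between neighbouring summits on a chromosome (right, bp), both on log axes, as numbers of peaks or distances per bin; the red lines mark the medians of 250 and 5004.5 bp. Distances range from 209 to 78924 bp.

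Neighbouring summits were a median of 5004.5 bp apart, with quartiles of 1252 and 10863 bp. The median depends on the weak peaks: it was 13089 bp among peaks with a −log10 q of at least 10 and 20573.5 bp among those with a fold of at least 3. Distances under 1000 bp numbered 322 of 1564 (20.6%), of which 131 were under 500 bp, and 156 (9.97%) were over 20000 bp. Summits less than 1000 bp apart formed 252 runs with 574 peaks, 36.6% of the list. There were 197 runs of 2, 42 of 3, 11 of 4 and 2 of 5. One run of 5 spanned 2981 bp next to cdc5 and over the coding sequence of SPAC644.13C, with folds of 1.88 to 2.75. The other spanned 2659 bp of tandem intergenic sequence near yox1, with folds of 2.00 to 2.65. The run of 4 with the strongest member lay at opi10, which encodes a nuclear import carrier, and its folds were 1.99 to 6.27. The longest stretch without a summit was 78924 bp on chromosome 2 between hom3 and SPBC31F10.17C, and held 38 starts of protein-coding genes. Those next in length were 65618 bp from SPAC23H4.05C to msc1 (30 starts), 63772 bp from pam1 to btf3 (26), 55638 bp from nat2 to eca39 (22) and 55566 bp from nbr1 to ecm14 (23).

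Most Pcr1 summits lay between genes and upstream of a gene start. Intergenic sequence held 968 of 1553 summits, 62.3% (exact 95% interval 59.9 to 64.7), against 22.8% of all annotated bases. Sequence between divergent genes held 27.0% of summits and 10.0% of bases, and sequence between tandem genes 31.4% and 10.7%. Convergent intergenic sequence, where no flanking gene begins, held 3.99% of summits and 2.12% of bases. Sequence beyond the outermost genes, at the chromosome ends, held 28 summits, 1.80% against 0.414% of bases, a ratio of 4.36 that was above those of divergent (2.69) and tandem (2.93) sequence. Of these 28 summits, 19 were in the lowest of the 4 fold bins. Coding sequence held 405 summits, 26.1% (23.9 to 28.3), against 56.9% of bases. Introns held 0.837% against 3.29%, 5′ UTRs 2.70% against 6.17% and 3′ UTRs 6.25% against 10.4%. All intervals cover counting error only. Annotated lncRNAs held 49.5% of summits and 47.7% of bases.

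Relative to the nearest start of a protein-coding gene, 986 summits (63.5%) were upstream, against 35.0% of all bases. The median position was 88 bp upstream, and the median distance in either direction was 447 bp, against 723 bp for all bases. The 100 bp just upstream of a start held 251 summits, 16.2% against 3.87% of bases, a ratio of 4.18 that was the highest of the 100-bp bins within 2000 bp. The next 100 bp upstream held 175 summits, at a ratio of 3.20. The first 100 bp inside the gene held 45, at 0.715. The step at the start was therefore larger than the change between neighbouring bins on the upstream side.

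**Figure D2:**
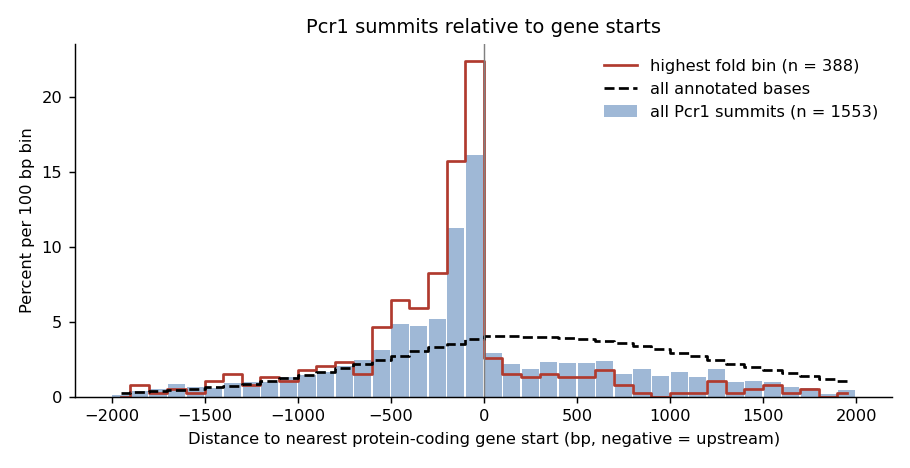
Distance from each annotated Pcr1 summit to the nearest protein-coding gene start (bp, negative values upstream) as percent per 100-bp bin, for all 1553 summits (bars), the 388 of the highest fold bin (red line) and all annotated bases (dashed line). The bars peak just upstream of the start at 16.2%, where bases give 3.87%; 51 summits further upstream and 91 further downstream than 2000 bp are not drawn.

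Position changed with fold. From the lowest to the highest fold bin, the share upstream of the nearest start was 46.2%, 58.0%, 68.6% and 81.2%. The coding share was 40.3%, 28.0%, 23.7% and 12.4% in the same order. The divergent intergenic share was 17.4%, 24.1%, 27.0% and 39.4%. The upstream and divergent shares rose and the coding share fell at each step between bins. The strongest summits in coding sequence were near mug143 (6.02), mug114 (5.87), SPAPB1A10.13 (5.87) and the heat shock gene ssa2 (5.80). In introns, cds1 at 6.82 was followed by gnd1 (5.18), map1 (4.59) and uvi15 (2.75).

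**Figure D3:**
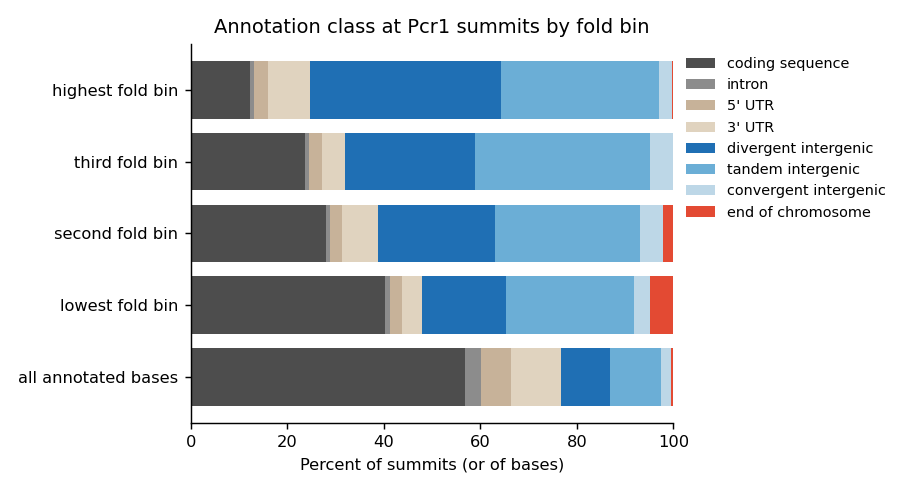
Annotation class at the summit as percent of summits, for each of the 4 fold bins and for all annotated bases. Coding sequence shrinks from 40.3% in the lowest bin to 12.4% in the highest, and divergent intergenic sequence grows from 17.4% to 39.4%.

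The strongest peak of the list, with a fold of 6.82, lay at chr3:740128-741286, with its summit 639 bp downstream of the start of cds1 and in an intron; the gene encodes a checkpoint kinase of DNA replication. Among the 20 strongest, with folds of at least 6.05, 19 were upstream of their nearest start, 15 had the core, and 11 lay in divergent and 7 in tandem intergenic sequence. The second, at 6.68, was 75 bp upstream of pqr1, a ubiquitin ligase gene. The third, at 6.60, was 412 bp upstream of gut2, a glycerol-3-phosphate dehydrogenase gene, and had no core. Those of osh6 (6.48, an oxysterol-binding protein), opi10 (6.27) and cgs2 (6.05, a cAMP phosphodiesterase) had summits 51, 51 and 65 bp upstream. Further upstream were atf21 (6.44, an ATF/CREB factor) at 1125 bp, puf5 (6.11) at 1232 bp and gsf2 (6.15) at 1615 bp. Other peaks of the 20 were near srk1, SPAC110.06, SPAC16A10.01, SPACUNK4.15, svf1, pyp2, SPBC609.01, the calcium pump gene pmc1, the peroxiredoxin gene tpx1 and the phosphatase gene pho8. On chromosome 2 right the 10 strongest were near opi10, SPBC609.01, pho8, SPBC3E7.17, tdh1, cdc10, say1, gpx1, gas2 and SPBC2A9.02, with folds of 6.27 to 5.23.

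A gene was counted as bound when a summit lay from 1000 bp upstream to 200 bp downstream of its start. This promoter window held 956 summits (61.6%, interval 59.1 to 64.0), against 40.2% of all bases. Of 5095 protein-coding genes, 1049 were bound, 20.6%, and 405 (7.95%) had a peak with a fold of at least 3. There were 931 genes with 1 summit, 110 with 2 and 8 with 3. The 8 were opi10, Tf2-5, SPAC27E2.01, nmd5, knh4, she9, ptf1 and cbp6. A single gene's window held 739 of the promoter summits, while 215 lay in the windows of 2 genes and 2 in those of 3, so bound genes are not independent of each other. The median best fold of bound genes was 2.64.

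The gene lists were chosen with earlier results of these data known, so their shares are a description and were not tested. Stress protection genes were bound in 16 of 21 cases (76.2%), against 20.6% of all protein-coding genes. Their median best fold was 5.04, and 14 (66.7%) had a fold of at least 3, against 7.95% of all protein-coding genes. The strongest were srk1 (6.45), the phosphatase gene pyp2 (6.14), tpx1 (6.08) and zwf1, which encodes the first enzyme of the pentose phosphate pathway (5.76). The trehalose synthase gene tps1 was at 5.55, the glutathione peroxidase gene gpx1 at 5.42 and the catalase gene ctt1 at 4.38. No summit lay in the windows of gst1, gst2, hsp16, sod2 and tpp1. Of the Sty1 pathway 10 of 18 genes were bound, with sty1 itself at 3.06 and the phosphotransferase gene mpr1 at 3.62. Both partners of the heterodimer were bound at their own genes: atf1 had a fold of 4.86 (rank 108) with the summit 62 bp upstream and a core, and pcr1 had 4.69 (rank 123) with the summit 54 bp upstream and no core within 100 bp. Among 6 bZIP factors pap1 (3.57) and zip1 (2.54) were bound as well. The atf21 summit lay outside its window.

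Genes of carbon metabolism and nutrient sensing were bound in the following numbers, to be read beside the 20.6% of all protein-coding genes. With a fold of at least 3 the share of all genes was 7.95%. Hexose transporter genes were bound in 7 of 8 cases, ght8 at 5.57, ght3 at 5.55, ght2 at 4.94 and ght1 at 4.60, and ght6 was not. Of 24 genes of glycolysis, gluconeogenesis and glycerol metabolism 17 were bound, 13 with a fold of at least 3, with gut2 at 6.60, gld1 at 5.98, the hexokinase gene hxk2 at 5.87, the peak named above at mug114, and tdh1 at 5.71. Of 17 genes of cAMP and glucose sensing 8 were bound: cgs2, the Gβ gene git5 (5.64), the kinase regulator cgs1 (5.60) and the repressor scr1 (4.77) were strongest. Iron uptake genes were bound in 9 of 14 cases with lower folds, up to 3.62 for sib1, and sib1 and sib2 share that peak, as fio1 and fip1 share one of 3.58. TOR and nutrient signalling genes were bound in 6 of 17 cases, with isp6 at 5.39. That is 35.3%, with an interval of 14.2 to 61.7 that includes the genome-wide share. With a fold of at least 3 the TOR list had 5 of 17 genes (29.4%), against 7.95% of all protein-coding genes. At that fold cAMP and glucose sensing had 6 of 17 genes, iron uptake 4 of 14 and hexose transporters 4 of 8. The bound transporter genes ght7 (2.83), ght5 (2.31) and ght4 (1.79) stayed below it.

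The remaining lists, histone genes excepted, lay closer to the genome-wide share. Bound were 6 of 24 heterochromatin factors, led by sap1 (5.96) and raf2 (3.45), 8 of 27 cell cycle genes, led by cdc10 (5.70), and 7 of 25 mating and meiotic entry genes, led by rsv2 (4.49) and ste6 (4.48). The summit counted for ste6 lay 815 bp upstream of it and in the 5′ UTR of ptl1, 6 bp downstream of the ptl1 start. Histone genes were bound in 6 of 11 cases, hta1 and htb1 through 1 shared divergent peak of 4.76. The strongest peak of hhf2 and hht2 was also shared, at 2.77, and 2 of the 11 genes had a fold of at least 3. Origin licensing genes were bound in 2 of 16 cases, sld3 (5.46) and cdc18 (2.01). Flocculin genes and regulators were bound in 3 of 14 cases, with gsf1 (4.41) strongest of those bound, mug genes in 20 of 91 and meu genes in 4 of 19. Some list members had a strong peak nearby but outside the window, and were not counted as bound. They include cds1 (6.82) of the cell cycle list, map1 (4.59) of the mating list and gsf2 (6.15) of the flocculin list. Ribosomal protein genes were bound in 35 of 136 cases (25.7%), but with a median best fold of 2.20, and only rpl4102 (3.98) and rps801 (3.03) reached 3. Several genes, such as srk1 and pyp2, stand in more than 1 list.

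**Figure D4:**
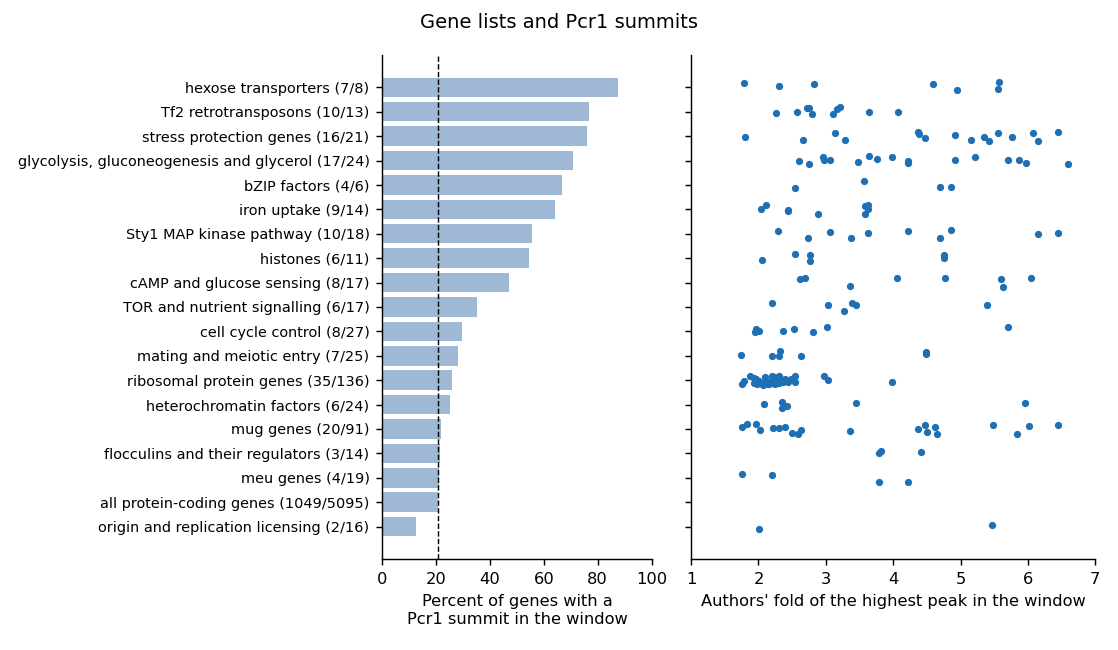
Left, percent of the genes of each list with a Pcr1 summit in the promoter window, with bound and measured genes in brackets; the dashed line is all protein-coding genes at 20.6%. Right, the authors' fold of the strongest such peak for each bound gene of a list (dots, not drawn for all genes): stress protection genes have a median of 5.04, ribosomal protein genes 2.20. The lists were chosen with earlier results of these data known.

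Repeats and non-coding genes held some of the same summits. Of 7436 non-coding RNA genes of any kind 887 had a summit inside, 11.9%. The lncRNAs among them held 49.5% of summits, near their 47.7% of bases. Of 171 tRNA genes 63 had a summit inside, and these 63 summits are 4.06% of all, against 0.105% of bases. Their median width was 151 bp and their folds were 1.70 to 3.90. Only 1 had the core, and 56 of the 63 peaks (88.9%) overlapped an Orc1 peak, against 29.2% of all annotated Pcr1 peaks. Long terminal repeats (LTRs), the ends of retrotransposons, held 89 summits, 5.73% against 0.608% of bases. Here 62 of 89 peaks (69.7%) overlapped a Deb1 peak, against 16.9% of all, and 1 had the core. The 89 include the rpl4102 peak (3.98), which overlapped a Deb1 peak and was counted above with the ribosomal protein genes. The Tf2 retrotransposon genes were bound in 10 of 13 cases, against 20.6% of all protein-coding genes, led by Tf2-13 at 4.08 and Tf2-5 at 3.64. Copies of tRNA genes and Tf2 elements are near-identical, so reads may have been split among them, and these positions are uncertain. Of 65 snoRNA genes 8 held a summit, of 6 snRNA genes 0 and of 47 rRNA genes 8.

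The core TGACGT lay wholly within 100 bp of 221 of 1553 summits, 14.2% (12.5 to 16.1), against 3.20% of all windows of that length. From the lowest to the highest fold bin the share was 5.38%, 6.99%, 12.1% and 32.5%. Summits with the core had a median fold of 3.51 and a median width of 482 bp, against 2.35 and 232.5 bp for those without. Within the highest bin, 169 summits had a core with its centre within 500 bp, at a median distance of 26.5 bp, and 83 of them within 25 bp. In the lowest bin the median was 223.5 bp over 59 summits.

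**Figure D5:**
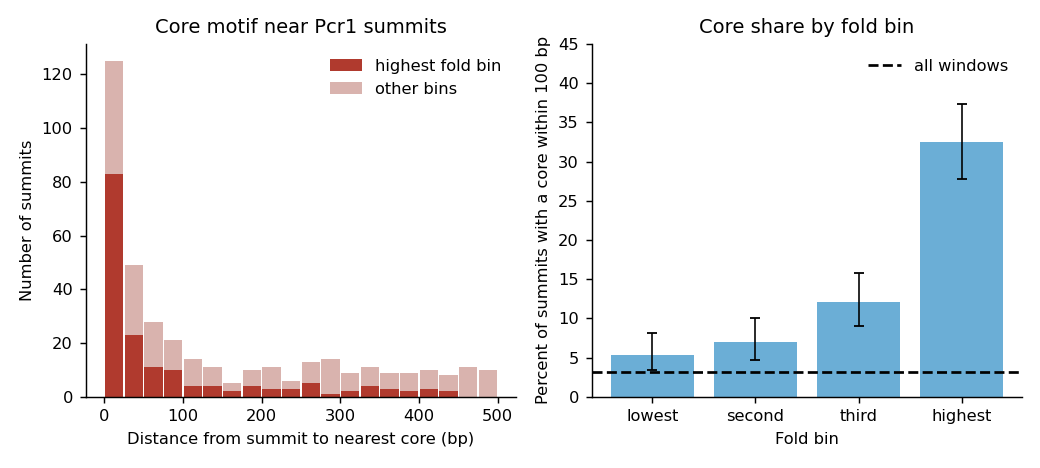
Left, distance from the summit to the centre of the nearest core (bp) for annotated Pcr1 summits with one within 500 bp, stacked for the highest fold bin and the others. Right, percent of summits with a core within 100 bp by fold bin, bars with exact 95% intervals that cover counting error only, and all windows as the dashed line at 3.20%; the highest bin stands at 32.5%.

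Seen from the sequence, 211 of 499 intergenic core sites (42.3%) lay inside a Pcr1 peak, against 66 of 1248 in coding sequence (5.29%). Peaks cover 10.8% of intergenic and 2.21% of coding bases. The palindrome, counted as 1 site, was inside a peak at 26 of 28 intergenic places (92.9%, interval 76.5 to 99.1) and at 1 of 11 coding places. TGACGTAA followed with 31 of 42 (73.8%), and TGACGTTA was lowest with 11 of 59 (18.6%). The base before the core also went with occupancy among the 471 other intergenic sites: ATGACGT, the hotspot heptamer, was inside a peak at 78 of 95 sites (82.1%), GTGACGT at 45 of 82 (54.9%), CTGACGT at 16 of 70 (22.9%) and TTGACGT at 46 of 224 (20.5%). The exact intervals were 72.9 to 89.2 for ATGACGT and 15.4 to 26.4 for TTGACGT. They treat sites as independent, although several sites can lie in 1 peak, and the difference was not tested.

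Of the 388 summits of the highest fold bin, 262 had no core within 100 bp. All 2080 distinct words of 6 bases were ranked on these same summits, so the words found are a description of them. Within 50 bp, ATGACG lay at 41 of the 262 (9.51 times the share of intergenic windows), TGACGC at 24 (8.83 times) and GATGTC at 42 (6.83 times). Any of the 3 lay at 81 (30.9%), against 4.63% of intergenic windows. At the 369 summits of the lowest bin without the core, ATGACG was at 18 (2.96 times), TGACGC at 7 (1.83 times) and GATGTC at 10 (1.15 times). These ratios are to intergenic windows, although the summits include those in coding sequence. Over all windows the 3 words had shares of 2.03%, 1.51% and 3.03%, against 1.65%, 1.04% and 2.35% of intergenic windows. GATGTC in the lowest bin, at 2.71%, was below its share of all windows. The core within 100 bp or any of these words within 50 bp was present at 207 of the 388 (53.4%). No background share was counted for this combination, so the count cannot be weighed against one. The strongest examples with GATGTC are shown with the word in capitals, from the same assembly.
SPACUNK4.15, chr1:2882227-2882256, plus strand: tcaccacactatGATGTCatcgtagcgatg
SPAC186.03, chr1:5534643-5534672, plus strand: ctgcatttgtatGATGTCatttcgtaacat
nhp6, chr1:1381625-1381654, minus strand: atagccatttatGATGTCatgtactaactc
These peaks had folds of 6.25, 5.89 and 5.87.

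Pcr1 peaks overlapped Atf1 peaks in 1257 of 1567 cases (80.2%), which is 1219 of the 1995 Atf1 peaks (61.1%). The median distance between the summits of overlapping peaks was 35 bp. By fold bin, 59.5%, 75.9%, 87.7% and 97.7% of annotated Pcr1 peaks overlapped an Atf1 peak, and 206 of the 221 with the core did. Deb1 peaks overlapped 263 Pcr1 peaks (16.8%), or 244 of 351 Deb1 peaks (69.5%). Orc1 peaks overlapped 462 (29.5%), or 441 of 1526 Orc1 peaks (28.9%). Overlap with these lists rose over the fold bins too. It was 7.95%, 10.4%, 18.3% and 30.9% for Deb1 and 20.3%, 29.3%, 32.9% and 34.5% for Orc1. The median width of Pcr1 peaks rose from 148.5 to 612 bp over the same bins, and its part in these overlaps was not tested. The promoter share was 61.6% for Pcr1, 60.4% for Atf1, 72.9% for Deb1 and 52.7% for Orc1, and the coding share 26.1%, 31.5%, 8.0% and 18.3%.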

How the data were processed

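Each protein has 1 deposited list of peaks for its 2 samples. Per the submitters' processing notes, Bowtie 1.2.3, MACS2 2.1.2 and bedtools were used, with no roles or settings; the genome build and any pooling are not given in the sources used here, and the names of the Pcr1 peaks carry 1 library's label. The deposited lists give, per peak, the authors' fold enrichment (a ratio), a score, the summit offset and the −log10 of a p-value (not used) and of a q-value. The deposited score was 10 times the −log10 q, rounded down, for all 1567 Pcr1 peaks. In 113 peaks the offset pointed outside the interval, and the midpoint was used. In the names, 10 were used more than once.

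Positions were compared with RefSeq assembly ASM294v3 by exact counts over all bases or windows, with Python 3.11.15, pandas 2.3.3, numpy 2.4.6 and scipy 1.17.1. Intervals are Clopper-Pearson 95%. The scripts were checked on a simulated chromosome. With 1 list there is no replicate, and no test was run. Overlap means at least 1 bp. The members and the gene lists were chosen with earlier results of these data known, and 4 genes that the annotation describes otherwise (rpp1, rpp21, rpp40 and abp1, none of them bound) were taken out of the ribosomal protein and heterochromatin lists afterwards. Genes were named by rule: the 20 strongest peaks, the 10 strongest on chromosome 2 right, the 4 strongest per position class, the 5 widest peaks, the 5 longest gaps, the largest runs, genes with most summits, up to 4 bound genes per list, atf1 and pcr1. Others in the text (ctt1, tps1, sty1, mpr1 and the unbound genes, for example) were chosen after their values were seen. Alternatives covered thresholds, windows, summits, the shift on chromosome 2 and overlap. One gene that the rule names is not reported here.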

Additional observations from a re-analysis of the deposited data

How the results depend on the processing

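Of 45 alternatives, 12 stayed inside the interval of the value or within 1.5 times the count. Restricting the list to a −log10 q of at least 10 left 630 peaks, 511 bound genes, a promoter share of 69.9%, a coding share of 15.7%, a core share of 27.0%, a median spacing of 13089 bp and a median width of 504 bp. A fold of at least 3 left 447 peaks, 405 bound genes and 76.1%, 12.4%, 31.4%, 20573.5 bp and 591 bp in the same order. The promoter share was 43.1% with 500 bp upstream only, 57.8% with 1000 bp upstream only and 56.9% from coding starts. Without the shift on chromosome 2 right the promoter, coding and core shares were 57.5%, 31.7% and 12.04%. The core share was 11.1% within 50 bp, 18.0% within 250 bp and 17.8% in whole intervals; TGACGTCA was at 1.67% and ATGACGT at 6.83%. Atf1 overlap was 77.5% when at least 50% of the Pcr1 peak had to be covered and 63.9% for summits within 100 bp. The cause of these moves was not tested beyond the filters' own construction. No paired analysis was possible because each protein has 1 list for both of its samples, and for the same reason no replicate could be left out. Depth is unknown, so weak peaks cannot be weighed against it.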
